A study of Mus musculus with 4 samples.

Results

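The 2 arrays of wildtype Paneth cells, of 4 arrays in the series, were used to describe which genes give the brightest signal in these cells at baseline. Paneth cells were cut from mouse intestine by laser capture, and their total RNA was amplified, labelled with biotin and hybridised to a 1-colour array. The wildtype mice had a mixed C57BL/6 and 129ola background, and no treatment is given in the labels. The labels give no age, sex or number of mice and no number of captured cells. They do not say either whether the 2 wildtype arrays came from separate mice, so the spread between them may be technical. The study's other 2 arrays, of mice with a hypomorphic allele of the autophagy gene Atg16, were not used, so no comparison between genotypes was made. A probe set is a group of short probes designed for a transcript. The brightest probe set stood for each gene, and genes were ranked by the mean of the 2 linear intensities. This ranked 18193 genes, and the 300 brightest, 1.65% of all genes, were described in detail.

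Paneth cells sit at the base of the crypts of the small intestine, between the stem cells that renew the epithelium. They make large secretory granules filled with lysozyme, alpha-defensins and other antimicrobial proteins, which are released into the crypt lumen, and they supply growth signals to the neighbouring stem cells. To fill these granules they carry an extensive rough endoplasmic reticulum (ER) and Golgi apparatus, and autophagy is known to be needed for normal granule release.

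The labelled cell type was checked against its markers first. All 5 defining markers, Lyz1, Ang4, Itln1, Mmp7 and Clps, were among the brightest 300 genes, on each array and by their mean. Lyz1, which encodes the lysozyme that cuts bacterial cell walls, was the gene of rank 2, at 15481 on replicate 1 and 16021 on replicate 2. Ang4, a microbicidal ribonuclease, was at 13272 and 13581 and had rank 11. Itln1, an intelectin that binds microbial sugars, was at 11120 and 11016 and had rank 48. These 3 genes kept nearly the same level on both arrays, which differed by at most 1.03-fold. Mmp7, the protease that activates mouse alpha-defensins, was at 9063 and 9314 with rank 112, and Clps, the colipase that assists lipid digestion, was at 7954 and 8216 with rank 185. The markers' other probe sets were bright too, at means of 14686 and 10199 for Lyz1, 8749 for Ang4 and 5707 for Clps. Without probe sets whose names end in _x_at or _s_at, which can bind related transcripts, Lyz1 had rank 41 and Ang4 rank 78, and Itln1, Mmp7 and Clps had ranks 29, 60 and 101. The markers were given in advance as genes of these cells, so their place in the ranking checks the label and is not a separate result.

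**Figure D1:**
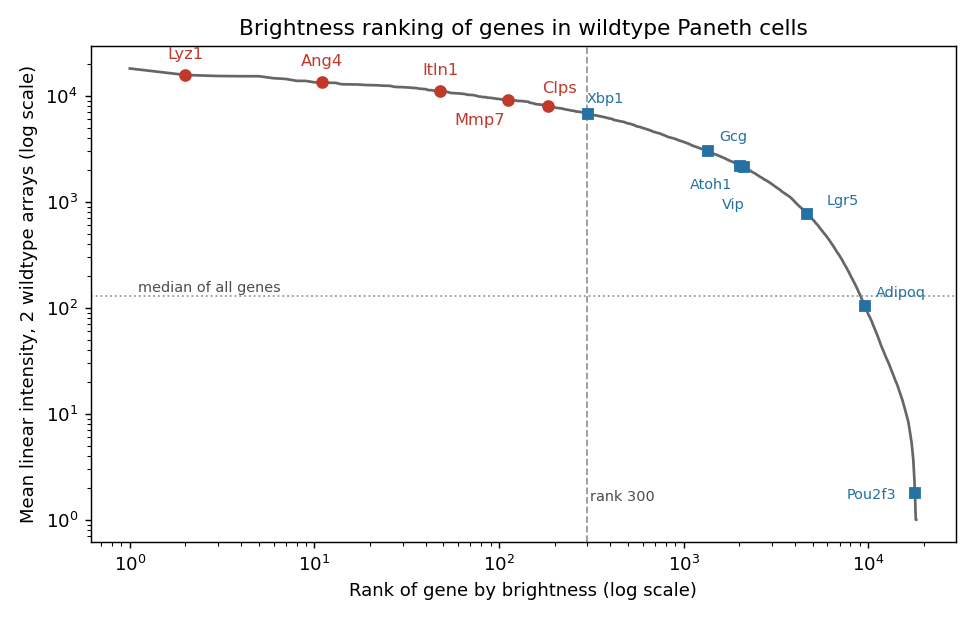
Mean linear intensity of each gene on the 2 wildtype arrays (log scale) against its rank (log scale). Red circles are the 5 Paneth cell markers, blue squares are other genes named in the text, and the dashed and dotted lines mark rank 300 and the median of all genes (129). The 5 markers lie between rank 2 and rank 185, and Xbp1 lies just past rank 300.

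An intensity depends on a probe set's own probes as well as on the amount of transcript, and it is not scaled to transcript length. The ranks below are therefore ranks of brightness, and a higher rank does not by itself mean a more abundant transcript. In addition, fewer cells of a type and less RNA per cell cannot be told apart in bulk RNA. The mean intensity fell from 18136 at rank 1 to 6826 at rank 300, a 2.66-fold range, while rank 300 was 52.7-fold above the median gene. The brightest 300 genes held 18.7% of the summed intensity of all genes.

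The order within the brightest 300 was only partly resolved by 2 arrays. Among all neighbouring pairs, 6 had array values that did not overlap. At 10 ranks apart 113 of 290 pairs did not overlap, at 50 ranks 227 of 250, and at 100 ranks 198 of 200. Single ranks are thus not ordered beyond the spread of the arrays, whereas genes some 100 ranks apart mostly are. Just inside the limit were Cnn3 at 6874 and 6793, Lgals4 at 6560 and 7102 and Lgals3 at 6988 and 6663. Just outside were Lpin2 at 6952 and 6650, Xbp1 at 6988 and 6599 and Atp5j2 at 6823 and 6752. These 6 genes overlapped in their array values, so rank 300 is a convention.

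The arrays were close to each other for bright genes. The median difference between them was 1.03-fold for the brightest 300, 1.05-fold from there to rank 3000, 1.1-fold from there to rank 9000 and 1.3-fold beyond rank 9000. A difference above 1.5-fold was seen in 1 of the brightest 300 genes against 17.9% of all genes. That gene was Add1, which encodes the membrane skeleton protein adducin 1, at 13003 on replicate 1 and 4221 on replicate 2. The next largest differences were those of the phosphatase gene Dusp9 at 8531 and 6572, Sprn at 8021 and 6267, Rbbp4 at 8741 and 11074, and Zfp365 at 9544 and 7690. Add1 was the only one of these 5 whose arrays differed by more than 1.3-fold. Ranked on each array alone, 280 genes were in the brightest 300 on both. At the dim end 95 genes read exactly 1 on both arrays, and such values have no order.

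**Figure D2:**
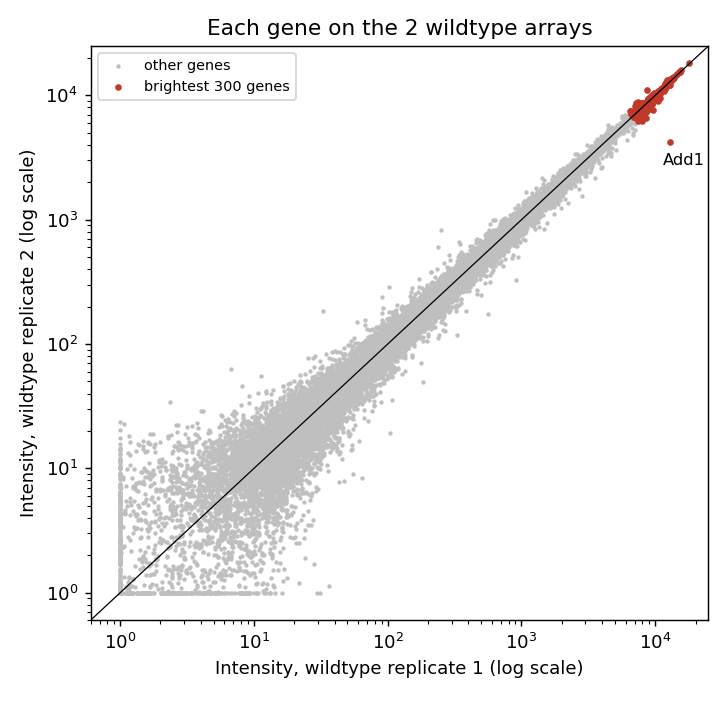
Linear intensity of each of 18193 genes on wildtype replicate 1 (x axis) and replicate 2 (y axis), both on log scales, with the line of equality. The brightest 300 genes are in red and lie along the line except Add1 (13003 against 4221), and the scatter widens below an intensity of about 129, the median of all genes.

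The listed products of Paneth cells were split between very bright and dim genes. Of 74 listed names 22 had a probe set of their own, of which 10 (45.5%) were in the brightest 300 and 12 in the brightest 1000 (5.5% of all genes), with a median rank of 338.5 against 9097 for all genes. That median rank was 1154 without _x_at and _s_at probe sets. Leaving out the 5 markers, 5 of 17 members (29.4%) were in the brightest 300, and their median rank was 2330. Beside the 5 markers these were the antimicrobial C-type lectins Reg3b, at 11150 and 11136 with rank 46, and Reg3g, at 6983 and 7066 with rank 278. Spink4, a serine protease inhibitor gene also expressed in goblet cells, was at 8161 and 8419. The alpha-defensin genes Defa39, at 10972 and 10907, and Defa31, at 8543 and 8559, completed the 10. Alpha-defensin genes are near-identical copies, so probes can bind several of them, and a value under a single name is uncertain as to the gene. Pnliprp2, a lipase, and Nupr1, a stress-response gene, followed at ranks 317 and 360.

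The other measured members of this list were spread down to the floor. Ang, a ribonuclease related to Ang4, was at 2022 and 2286, and the pentraxin gene Mptx1 at 1954 and 1912. Pla2g2a, a phospholipase known to be disrupted in C57BL/6 mice, was at 545 and 768 and had rank 5110. Reg3a, in contrast to Reg3b and Reg3g, read 26.9 and 49.4, below the median of all genes. Ang2, Ang3 and Defa3 read under 12 on both arrays. Thus 5 of the 22 measured members were at or below the median gene, where 50% of all genes lie by definition. Another 4 listed names were found only on probe sets that carry several gene symbols and are not given a value here. Of the 300 brightest probe sets, 2 carried several symbols that included an alpha-defensin gene, so the named genes do not hold all the alpha-defensin signal.

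**Figure D3:**
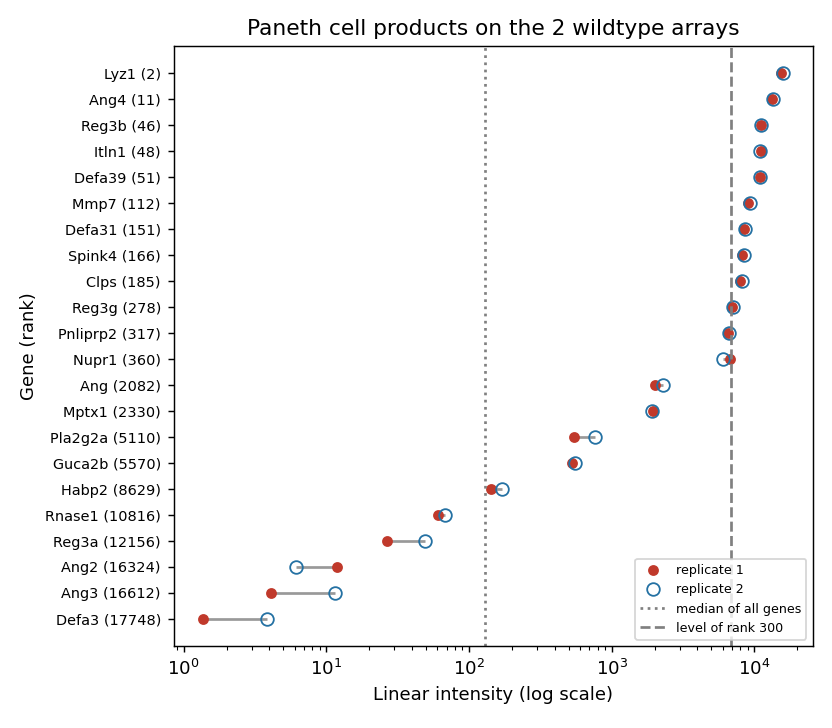
Linear intensity (log scale) of the 22 measured Paneth cell products on replicate 1 (filled) and replicate 2 (open), each gene's rank in brackets. The 10 members right of the dashed line (the level of rank 300) have nearly equal values on both arrays, and the 5 members left of the dotted line (the median of all genes) are dim on both.

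Promoter sequences were set beside these levels for the secreted products in the brightest 300. These genes come from several families but were bright on the same arrays. Whether they were bright in the same cells was not tested. RefSeq promoters (build GRCm38.p6) were found for 7 of the 10, and for the lysozyme paralogue Lyz2. Defa39, Spink4 and Clps had no entry. The stretch from 130 bases before to 20 bases after the annotated start is printed 5′ to 3′. Capitals mark TATA-box-like letters that begin 40 to 20 bases before the start on the gene strand, in the form ATAAA, the form TATAT or the form TAAATA. They also mark the letters ATCAAAG on either strand, the core bound by the TCF/LEF factors of the Wnt pathway, which reads CTTTGAT where it lies on the other strand.
Lyz1 (chr10:117292849-117292998, minus strand): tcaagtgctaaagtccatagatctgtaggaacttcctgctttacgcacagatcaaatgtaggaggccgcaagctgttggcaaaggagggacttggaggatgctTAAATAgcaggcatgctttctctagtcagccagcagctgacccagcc
Lyz2 (chr10:117282253-117282402, minus strand): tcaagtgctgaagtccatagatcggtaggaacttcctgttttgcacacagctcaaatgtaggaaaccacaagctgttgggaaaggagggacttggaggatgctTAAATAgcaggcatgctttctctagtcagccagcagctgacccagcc
Ang4 (chr14:51773571-51773720, minus strand): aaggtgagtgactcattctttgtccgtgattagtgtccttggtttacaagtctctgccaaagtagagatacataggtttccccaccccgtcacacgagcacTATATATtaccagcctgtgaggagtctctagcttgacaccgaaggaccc
Itln1 (chr1:171535275-171535424, minus strand): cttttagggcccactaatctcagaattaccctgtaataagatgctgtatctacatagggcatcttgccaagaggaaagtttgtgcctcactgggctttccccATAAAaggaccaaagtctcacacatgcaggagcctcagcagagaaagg
Reg3b (chr6:78370755-78370904, plus strand): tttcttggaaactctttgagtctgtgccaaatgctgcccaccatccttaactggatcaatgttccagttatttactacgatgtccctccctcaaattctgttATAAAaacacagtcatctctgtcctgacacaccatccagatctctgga
Reg3g (chr6:78468855-78469004, minus strand): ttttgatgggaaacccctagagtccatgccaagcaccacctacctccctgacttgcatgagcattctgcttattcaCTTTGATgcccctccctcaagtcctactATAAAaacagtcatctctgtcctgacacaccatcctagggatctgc
Mmp7 (chr9:7691960-7692109, plus strand): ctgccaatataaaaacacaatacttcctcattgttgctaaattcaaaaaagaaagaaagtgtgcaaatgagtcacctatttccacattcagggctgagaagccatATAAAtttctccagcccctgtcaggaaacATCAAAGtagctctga
Defa31 (chr8:21191443-21191592, plus strand): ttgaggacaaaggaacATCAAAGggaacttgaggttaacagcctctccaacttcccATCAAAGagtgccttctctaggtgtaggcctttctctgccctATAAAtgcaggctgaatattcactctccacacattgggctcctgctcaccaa

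All 7 of these products carried TATA-like letters in that window, against 8.68% of the 242 genes of the brightest 300 with a promoter and 7.27% of all 27025 genes with a promoter. The 3 forms were chosen after reading these sequences, so the count describes them and tests nothing. Over the 15 measured products with a promoter, 8 carried such letters, and so did 7 of 34 enterocyte markers (20.6%). The TATA box is the element that positions transcription of many strongly regulated, tissue-restricted genes. The stricter form TATAAA in the same window was found in 4 of the 7 products and in 2.41% of all genes. TATAAA on either strand anywhere in the 300-base promoter was found in 4 of the 7, in 5 of the 15 measured products (33.3%), in 11 of 34 enterocyte markers (32.4%) and in 15.7% of all genes. That broader count was thus as frequent in enterocyte markers as in measured Paneth cell products.

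The letters ATCAAAG were found on either strand in 3 of the 7 promoters, those of Mmp7, Defa31 and Reg3g, and in 4.29% of all genes with a promoter and 2.48% of the brightest 300. In Defa31 they occurred at 114 and at 74 bases before the start, and in Mmp7 just after it. ATCAAAG and the TATA-like letters did not overlap in any of these promoters. A match of letters is a description and does not show that a factor binds there.

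Lyz1 and Lyz2 lie next to each other on chromosome 10 and were both in the brightest 300. Their promoters shared 94% of positions over the last 150 of the 300 bases and 40% over the first 150, compared without gaps. Lyz2, the lysozyme of macrophages and other myeloid cells, was at 7868 and 8245 and had rank 186. The transcripts of the pair are closely related too, so probes of one gene may bind the other. How much of the Lyz2 signal is Lyz1 transcript was not tested. Reg3b and Reg3g, which also share a chromosome, matched in 49% of promoter positions at the best single shift. The unrelated pair Lyz1 and Mmp7 matched in 31.6%. No gap was allowed inside a promoter, and the 49% therefore understates the likeness of Reg3b and Reg3g. After ATAAA both printed sequences hold cagtcatctctgtcctgacacaccatcc, which this shift leaves out of register.

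The machinery that builds and ships secreted proteins ranked well above the median gene. Proteins enter the ER through a translocation channel, are glycosylated and folded there by chaperones, and leave in coated vesicles. Of 45 measured genes of translocation and N-glycosylation 7 (15.6%) were in the brightest 300 and 18 in the brightest 1000, with a median rank of 1636. By the mean or median of each gene's probe sets 4 were in the brightest 300. They were led by Tram1, which helps proteins into the channel, at 8319 and 8070. Stt3a, a catalytic subunit of the glycosylating enzyme, was at 7727 and 7898, and Sec61a1, the core of the channel, at 7573 and 7723. Srp14, a part of the signal recognition particle, was at 7760 and 7528, a range that overlapped those of Stt3a and Sec61a1. On its brightest probe set Tram1 was above all 3 on both arrays, but its other probe set had a mean of 126. The second-brightest probe sets of Stt3a, Sec61a1 and Srp14 had means of 1828, 5000 and 5522.

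ER chaperones and genes of the unfolded protein response had 2 of 46 members in the brightest 300 and 11 in the brightest 1000, with a median rank of 2200. P4hb, a protein disulfide isomerase, was at 9866 and 10536, and the proline isomerase Ppib at 9062 and 9104. Xbp1, the transcription factor that expands the secretory ER, had rank 302. Sel1l, an adaptor of ER-associated degradation, was at 6161 and 6223. The chaperones Calr and Hspa5 had ranks 408 and 597, and the stress sensors Ern1, found in most tissues, and Ern2, restricted to mucosal epithelia, had ranks 1664 and 2310. Only 5 of the 46 genes were at or below the median.

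The promoters of these chaperone genes were searched for the ER stress response element, which is CCAAT, any 9 bases and CCACG, on both strands. It was present in 9 of 38 genes with a promoter (23.7%) against 0.137% of all 27025 genes, and in 0 of the 242 genes of the brightest 300 with a promoter. The element is known as the site through which the unfolded protein response acts on chaperone genes. The list was chosen for that function, so its higher share describes the list and tests nothing about these cells. Those of the 4 highest-ranked genes are shown, with the fixed letters in capitals, read in the direction of the element.
Calr (chr8:84847075-84847093): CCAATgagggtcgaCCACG
Canx (chr11:50325800-50325818): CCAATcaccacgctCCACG
Hspa5 (chr2:34772025-34772043): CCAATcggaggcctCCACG
Dnajc3 (chr14:118937827-118937845): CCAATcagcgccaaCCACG

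The element contains the shorter CCAAT box, which counted by itself was found in 41.1% of all genes with a promoter and 81.6% of the chaperone genes. The other 5 genes with the full element were Creld2, Hsp90b1, Pdia6, Syvn1 and Derl3, with ranks from 1508 to 5547.

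Transport between ER and Golgi had 3 of 52 members in the brightest 300 and 13 in the brightest 1000, and its median rank was 2388.5. Tmed9, a cargo receptor of vesicles, was at 7362 and 7923, and Kdelr1, which returns escaped ER proteins, at 7366 and 7576. Arf1, the GTPase that recruits the COPI coat, was at 7307 and 7326, and Preb, the activator of the COPII GTPase, at 6129 and 6429. Lysosomal genes had 4 of 42 members in the brightest 300, led by the cholesterol carrier Npc2 at 10299 and 10195 and the proton pump accessory Atp6ap2 at 9598 and 9618, with a median rank of 2564.5. Grn, the precursor of granulins, and the membrane protein Lamp1 were the other 2.

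Autophagy, the recycling pathway named in the study's title, was represented at lower brightness. None of the 39 measured genes was in the brightest 300 (1 without _x_at and _s_at probe sets) and 1 was in the brightest 1000, Map1lc3b, whose product coats autophagosomes, at 6515 and 6680 with rank 323. The cargo receptor Nbr1 followed at 3641 and 3607, then Map1lc3a at 3365 and 3766 and the receptor Tax1bp1 at 3032 and 3082. Atg16l1 itself had rank 3393. The median rank of the list was 6621, and 9 of its 39 members were at or below the median gene.

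Protein synthesis and energy supply made up much of the top of the ranking. Cytosolic ribosomal proteins had 28 of 50 measured members in the brightest 300 (56%), with a median rank of 170, which was 345 without _x_at and _s_at probe sets. Rpsa, at 17932 and 18339, was the brightest gene of all, followed within this list by Rps3 at 15218 and 15449, Rps2 at 15090 and 15563 and Rps18 at 14361 and 14532. The count for this list is limited by annotation, since many ribosomal protein genes have pseudogenes and their probe sets carry several symbols. Of the 300 brightest probe sets 78 had several symbols and 25 none, and 52 of the 78 included a ribosomal protein gene. Rps16, for example, was named only from a probe set that read 1.2 and 1.

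Translation factors had 10 of 41 members in the brightest 300, led by the elongation factor Eef1a1 at 12738 and 13029, the growth-related protein Tpt1 at 12603 and 12576, the poly(A)-binding protein Pabpc1 at 11612 and 10884, and the initiation factor Eif3f at 9798 and 10325. Subunits of oxidative phosphorylation, the mitochondrial chain that makes ATP, had 25 of 83 members there (30.1%), with a median rank of 539. Cox5b and Cox6a1, subunits of cytochrome c oxidase, were at 12198 and 11891 and at 11581 and 11752. Uqcrb of complex III was at 11845 and 11794, and Ndufb11 of complex I at 10715 and 10440. These 4 subunits of 3 complexes lay between 10440 and 12198. Glycolysis was split, with Pgk1 (10845 and 10850), Ldha, Aldoa and Tpi1 in the brightest 300 and a median rank of 6783 over 16 genes.

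Heat shock proteins and their partners had 4 of 24 genes in the brightest 300, and 2 by the mean or median of each gene's probe sets. Hspa8, the constitutive member of the HSP70 family, was at 13562 and 14111, the mitochondrial chaperonin Hspd1 at 7565 and 7476, and Hsp90aa1 at 6925 and 7312. Hsph1, a partner of HSP70, was at 6941 and 6930. Antioxidant and zinc genes had 4 of 34 members there, the thioredoxin Txn1 at 11750 and 11471, the superoxide dismutase Sod1 at 10139 and 10237, the ferritin Fth1 at 9448 and 9105, and the peroxidase Gpx4 at 7982 and 7103. The second probe sets of Txn1, Fth1 and Gpx4 were dim, at means of 10.4, 222 and 94.1, and that of Sod1 was at 4294. The metal-binding Mt1 and Mt2 had ranks 515 and 798, and Slc30a2, a zinc transporter of secretory granules, had rank 5158. Of 47 proteasome subunits 2 were in the brightest 300, Psma6 and Psmc2, and Psmd14 and Psma3 followed at ranks 433 and 442.

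Genes that hold epithelial cells together were well represented. Of 24 epithelial adhesion and surface genes 10 (41.7%) were in the brightest 300, and 6 by the mean or median of each gene's probe sets. They included Pigr, which carries IgA across the epithelium, at 11157 and 11498, the catenins Ctnna1 at 8947 and 9406 and Ctnnb1 at 9095 and 8836, and Epcam at 8213 and 8181. The second probe sets of Pigr, Ctnnb1 and Epcam were much dimmer, at means of 1002, 36 and 809, and that of Ctnna1 was at 6659. Cytoskeletal genes had 11 of 37 members there, among them the tubulin Tubb4b at 13000 and 13564, the actin-severing Cfl1 at 12764 and 12870, the keratin Krt8 at 12003 and 12913, and Tmsb10 at 10221 and 10531. The other probe set of Cfl1 had a mean of 150, and the second-brightest of Tubb4b, Krt8 and Tmsb10 had 7914, 12391 and 9072. Of 21 genes of antigen presentation, H2-Aa at 9658 and 9831 and H2-Eb1 at 7167 and 7354, both of MHC class II, were in the brightest 300, and H2-Ab1 and B2m had ranks 362 and 623.

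**Figure D4:**
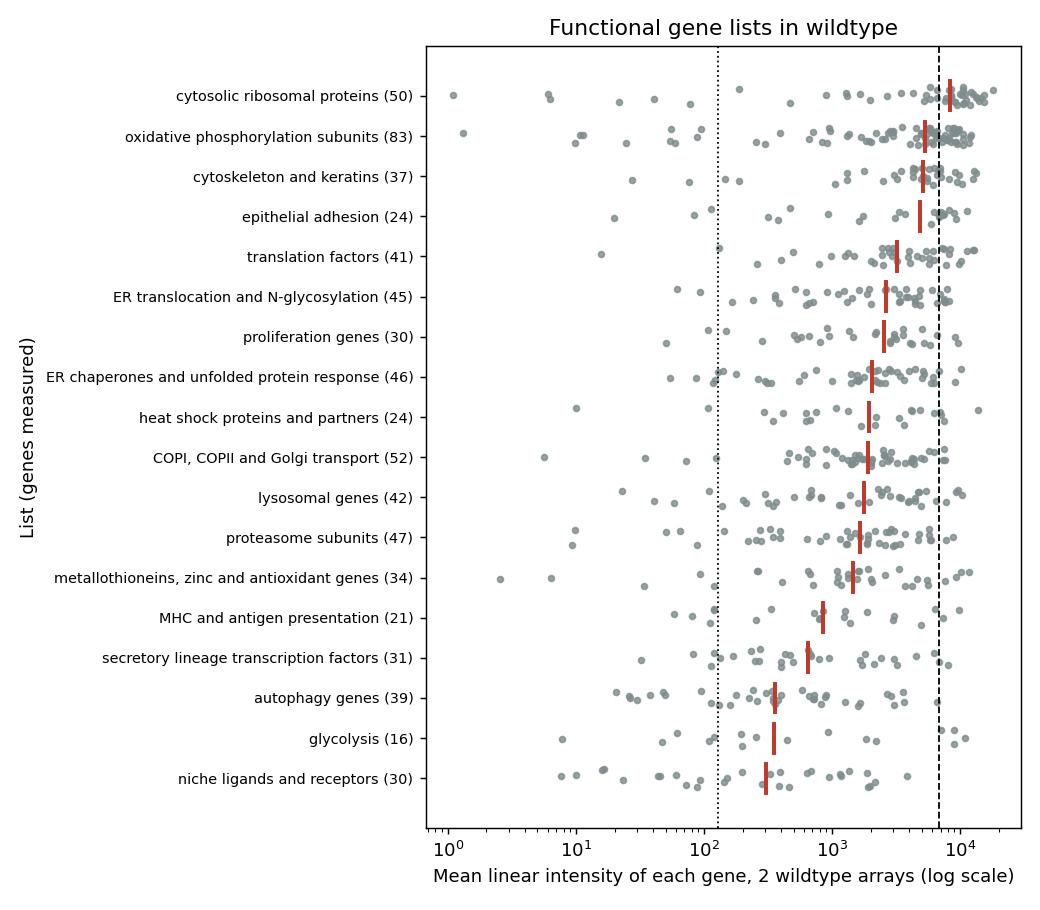
Mean linear intensity (log scale) of every measured gene of 18 functional lists, with the list median as a red bar; the dotted and dashed lines are the median of all genes and the level of rank 300. Ribosomal proteins have the highest median (8253) and niche ligands and receptors the lowest (307), still above the 129 of all genes.

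Transcription factors and niche signals were dimmer, by their list medians, than the listed Paneth cell products. Of 31 transcription factors of the intestinal epithelium and its secretory lineage only Hnf4a, a regulator of intestinal identity, was in the brightest 300, at 7725 and 8257. Xbp1 and the intestinal factor Cdx2 followed at ranks 302 and 375, and Ets2 at 4400 and 4584. The second-brightest probe sets of Hnf4a, Xbp1, Cdx2 and Ets2 had means of 1800, 3841.5, 2.305 and 1238. Atoh1, which commits progenitors to the secretory lineage, was at 2152 and 2096, and Gfi1, which acts after it, at 1734 and 1873. Spdef, a factor of goblet and Paneth maturation, was at 361 and 500. Sox9, which is required for Paneth cells to form, read 80.7 and 83.5, below the median gene, on the brightest of its 3 probe sets.

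Of 30 niche ligands and receptors 0 were in the brightest 300 and 1 in the brightest 1000, Ephb3, a receptor that keeps Paneth cells at the crypt base, at 3831 and 3841. The Wnt receptor Fzd5, needed for Paneth maturation, was at 2183 and 2148, Erbb3 at 1851 and 2078 and Lgr4 at 1848 and 1974. The second probe sets of Fzd5, Erbb3 and Lgr4 were dim, at means of 12.1, 10.3 and 16. Among ligands known to come from Paneth cells, Egf was at 399 and 369, while Wnt3 read 47.8 and 43.6, Dll4 read 87 and 88, and Tgfa read 57.4 and 87.8. The last 3 were below the median of all genes. The median rank of the list was 7028.

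Markers of other cells of the crypt and villus were present at different levels. Of 324 genes on the 17 lists of other cell types, 14 (4.32%) were in the brightest 300, where 1.65% of all genes lie. Goblet cells, the mucus-secreting cells, had 5 of 19, namely the lectin Zg16 at 11784 and 11982, the trefoil peptide Tff3 at 7929 and 8634, the mucins Muc13 at 7219 and 8646 and Muc2 at 7062 and 7327, and the disulfide isomerase Agr2. Without _x_at and _s_at probe sets 3 were there. The summed level of the 19 goblet markers was 69696 on replicate 1 and 73544 on replicate 2. Its defining genes were not uniform, since Fcgbp had rank 998, Clca1 had rank 3854 and Retnlb read 110 and 93.1. Whether these transcripts came from goblet cells in the captured area was not tested, and Agr2 and Muc13 are not restricted to goblet cells.

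Stem and progenitor markers had 3 of 21 members in the brightest 300, with a summed level of 48401 and 47748. Olfm4, a secreted protein of crypt base stem cells, was at 8984 and 8687, the chloride cotransporter Slc12a2 at 8251 and 7936, and Prom1 at 7540 and 7216, while Hopx had rank 404. Lgr5, the receptor that defines these stem cells, was at 796 and 755, and Ascl2 at 1556 and 1571. Proliferation genes, which mature Paneth cells are not expected to use because they do not divide, had 2 of 30 members in the brightest 300, Cdca8 at 9641 and 9487 and Stmn1 at 8858 and 9277. The second probe sets of Cdca8 and Stmn1 had means of 2164 and 223, and the brightest of both genes end in _s_at. Ccna2 and Mki67 followed at ranks 331 and 438, and 28 of the 30 were above the median gene. The part of neighbouring dividing cells in these values was not tested.

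Enterocytes, the absorptive cells, had 2 of 37 markers in the brightest 300 and a summed level of 62839 and 62969. Fabp6, the bile acid-binding protein of the ileum, was at 9769 and 9954, and Fabp2 at 7566 and 7661, whereas Slc5a1 and Mgam, a sugar transporter and a sugar-digesting enzyme, had ranks 721 and 746. In contrast Lct read 36.5 and 37.9, Ace 33.6 and 33.4 and Fabp1 162 and 144. Enteroendocrine markers had 0 of 28 there and a summed level of 20981 and 19459, led by Chgb at 4749 and 4484, Reg4 at 3735 and 3553, the proglucagon gene Gcg at 3098 and 2892 and Tac1 at 2892 and 2514. Of the 28 markers 16 (57.1%) were at or below the median gene, near the 50% of all genes. Tuft cell markers had 0 of 14 in the brightest 300, and 10 of the 14 were at or below the median gene, with Pou2f3 at 2.54 and 1.

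Markers of connective tissue, muscle and vessels were measured too, and which cells their RNA came from was not tested. Fibroblast and matrix markers had 1 of 27 in the brightest 300, Adamdec1 at 8346 and 8343, but 9 in the brightest 1000 and a median rank of 2100, with a summed level of 69404 and 70847. Without _x_at and _s_at probe sets 3 were in the brightest 300. Col3a1, a fibrillar collagen, was at 5872 and 6274, Vim at 5800 and 6034 and Col1a2 at 5683 and 5689. Smooth muscle markers were led by Acta2 at 5712 and 6541, Mylk, Tpm2 and Cald1, all in the brightest 1000, with a summed level of 25690 and 27593. Desmin (Des) read 99.8 and 66.2, below the median gene. Endothelial markers had none in the brightest 1000, with Plvap highest at 2014 and 1915 and Pecam1 at 23.1 and 10.3, and summed to 7528 and 7151. The median rank of the endothelial list was 7447.5.

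Among blood-derived cells the brightest marker was that of plasma cells. Igha, the constant part of the IgA heavy chain, was at 11925 and 12455 with rank 27, and Jchain, which joins IgA units, was at 5606 and 5554. Sdc1 and Txndc5, which epithelial cells also express, had ranks 860 and 1013. Mzb1 and Tnfrsf17, other plasma cell genes, were below the median gene, and the 17 markers summed to 28991 and 29766. Macrophage and dendritic cell markers were led by Lyz2, whose probes may also bind Lyz1 transcript. Csf1r followed at 3653 and 3510, then Ptprc at 2153 and 2200 and Adgre1 at 1529 and 1374. The 20 markers summed to 21268 and 21727, and 7 of them were at or below the median gene. Among these 7 were Cd68 at 21.5 and 31, C1qc at 36.9 and 47.3 and Itgax at 45.5 and 47.6. Of 20 T and NK cell markers 0 were in the brightest 1000, the granzyme Gzma was highest at 952 and 939, and 14 were at or below the median. All 11 mast cell markers were at or below the median gene, with Kit highest at 61.1 and 74.1.

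Fat cell markers had 0 of 21 in the brightest 1000 and a median rank of 11075, and 12 of the 21 were at or below the median gene. Their summed level was 13064 and 13547, mostly from Car3 at 3426 and 3501, Fabp4 at 3483 and 3326, Gpd1 at 2236 and 2574 and Lpl at 1488 and 1427. On their second-brightest probe sets Car3, Fabp4, Gpd1 and Lpl had means of only 68.8, 120, 398 and 31.8. The fat-specific hormone gene Adipoq read 109 and 101. Of 20 enteric neuron and glia markers 19 were at or below the median gene, and the remaining marker, the neuropeptide gene Vip, was at 2271 and 2119. The liver list had Cps1 at 9281 and 9175, a urea cycle enzyme that the small intestine also makes, and Alb at 20.3 and 26.9. Pancreatic acinar markers had 12 of 14 and red blood cell markers 7 of 8 at or below the median, with Sycn (358 and 335) and Hba-a2 (132 and 159) highest.

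**Figure D5:**
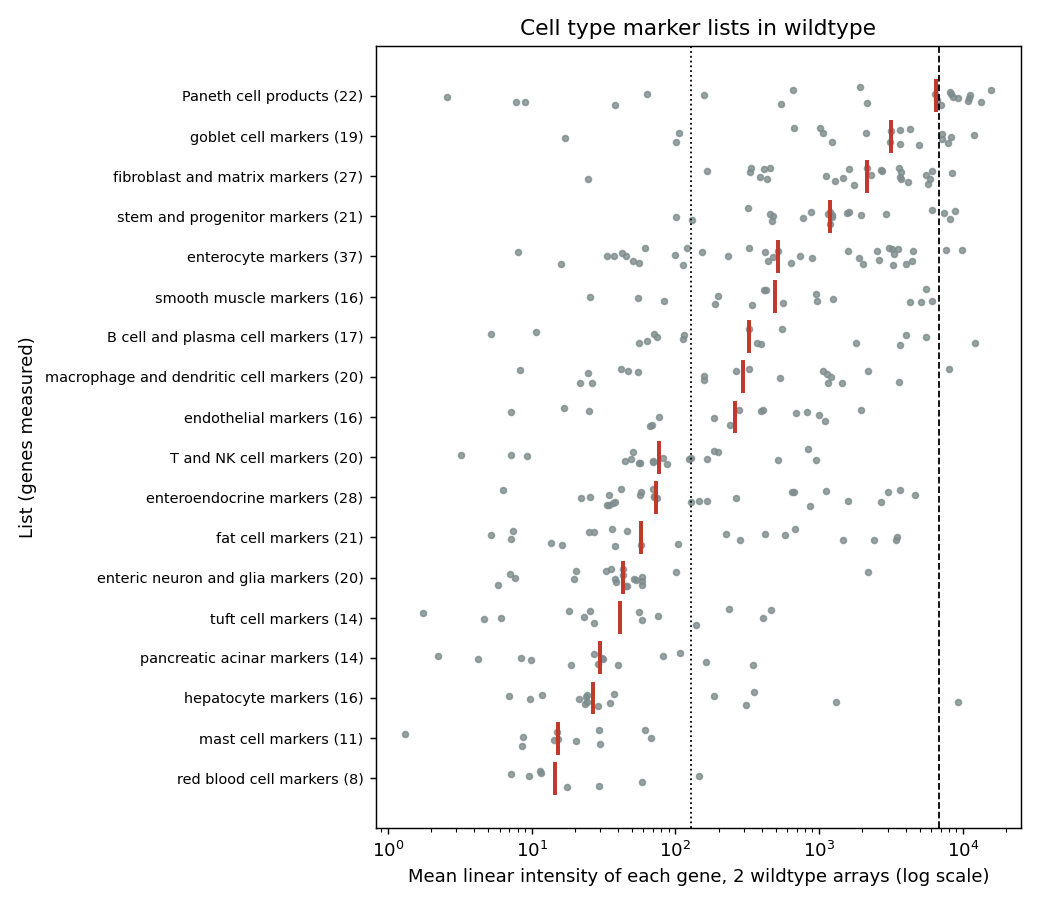
Mean linear intensity (log scale) of every measured gene of the Paneth cell list and 17 lists of other cell types, with the list median as a red bar; the dotted and dashed lines are the median of all genes and the level of rank 300. Paneth cell products have the highest median (6506), goblet markers follow (3159), and mast and red blood cell markers have the lowest medians (15.2 and 14.6). The Paneth cell list includes the 5 markers given in advance. Without them its median rank was 2330, dimmer than those of goblet (1256) and of fibroblast and matrix markers (2100).

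Of the brightest 300 genes, 143 were on at least 1 of the 36 lists and 157 on none, and 294 of 300 were protein-coding. Among the 30 brightest, the genes on no list were Obsl1, Hadh, Hmgn1, Pign, Akr1a1, Ywhab, Pabpn1, Utf1, Tspan18, Gpr3, H2az1 and Ran. Hadh, an enzyme of mitochondrial fatty acid oxidation, was at 14524 and 14838, and Akr1a1, an aldehyde reductase, at 12269 and 13209. Hmgn1 and H2az1 encode chromatin proteins and were at 12655 and 13036 and at 11905 and 12325. Ywhab, a 14-3-3 adaptor, was at 12391 and 12944, the poly(A)-tail factor Pabpn1 at 12530 and 12759, and Ran, the GTPase of nuclear transport, at 12069 and 12100. All 7 of these genes had a second probe set, with means from 6276 to 11335, but their probe sets did not all agree. The dimmest read 16.7 for Hmgn1, 158 for Pabpn1, 348 for Ywhab, 1562 for Hadh and 1593 for Ran, against 4774 for Akr1a1 and 9351 for H2az1.

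Families noticed in the ranking afterwards were counted whole. Of 19 hnRNP genes, which package and splice nuclear RNA, 6 were in the brightest 300, with Hnrnpc at 9267 and 9057 and Hnrnpdl at 8848 and 8786. Of the 8 subunits of the cytosolic chaperonin, which folds actin and tubulin, 4 were there and 7 in the brightest 1000, led by Cct3 at 11914 and 12083. Their median ranks were 874 and 397.5. Tetraspanins had 3 of 19 there and mitochondrial carriers 2 of 44, Slc25a3 and Slc25a5, with median ranks of 7546 and 8213, nearer the 9097 of all genes. Small nucleolar RNA host genes had 1 of 14 and a median rank of 3795.5. Kallikreins, a family of secreted proteases, had 0 of 20 in the brightest 1000 and a median rank of 15219.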

How the data were processed

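Only the 2 wildtype arrays were analysed. The authors deposited a linear intensity per probe set and array, from 0.74 to 18339 in these 2. How they corrected background or scaled the arrays is not stated in the labels. The 2 arrays' trimmed means (2% off each end) were 1.01-fold apart, so no further scaling was applied. Of 45101 probe sets, 64 controls were left out. Of the rest, 34945 had 1 gene symbol in the platform annotation, 932 several and 9160 none, and genes were named only from the first kind. RefSeq (GRCm38.p6) held 18031 of the 18193 genes, with 0 changed symbols.

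Genes were ranked on the mean of the 2 intensities at their brightest probe set (pandas 2.3.3, Python 3.11.15). A simulated ranking was checked. No tests between groups were made. Having only 2 arrays limits the precision. Members and lists were chosen with earlier results of these data known. Named were the 5 markers, the 30 brightest genes, up to 4 leading members per list, the 5 largest array differences and the genes at rank 300. Other names, the added families and the motifs were chosen after values were seen.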

Additional observations from a re-analysis of the deposited data

How the results depend on the processing

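The brightest 300 genes depended mainly on how a gene's probe sets were combined. Of the 300, 185 remained when a gene's probe sets were averaged, 179 with their median, 189 without probe sets ending in _x_at or _s_at, and 160 when all probe sets were ranked, named or not. All 300 remained with the mean of log2 intensities and with quantile normalisation, and 290 with each array alone. Paneth cell products in the brightest 300 numbered 10 in the main ranking and on each array alone, 12 by mean or median of probe sets, and 9 without _x_at and _s_at probe sets. They numbered 5 in the brightest 100 and 12 in the brightest 1000, and other-cell markers 3 and 36, against 14 in the brightest 300. Without _x_at and _s_at probe sets, Lyz1 had rank 41 and Ang4 rank 78, and the median rank of Paneth cell products was 1154. Such probe sets can bind related transcripts, and _x_at sets represented 31% of the brightest 300 against 4.73% of all genes. No paired analysis was possible because the results come from no test between groups. Dim genes were measured less precisely, since 34.1% of genes past rank 9000 differed over 1.5-fold between arrays. The part of background signal in this was not tested.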

Other observations

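Several of the brightest genes rested on 1 bright probe set beside dim ones. Of 227 genes of the brightest 300 with more than 1 probe set, 98 had a second probe set more than 4-fold dimmer than the first. Obsl1, a cytoskeletal adaptor gene of rank 3, was at 15430 and 15386, and its other 4 probe sets had means from 1 to 14.4. Utf1, a transcription factor known from embryonic stem cells, was at 12851 and 12148 and its second probe set at 24.8. Tspan18 was at 12503 and 12459 and its second at 83.2, and Pign, an enzyme of membrane anchor synthesis, at 12794 and 12850 with its second at 644. The same held for Rpsa, at 8.66, and Tpt1, at 2.16, on their second probe sets. Gpr3, a receptor gene with 1 probe set, was at 12616 and 12157. The cause of these gaps was not tested.

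Among the brightest 300 were some genes known from Paneth cells but on no list. The calcium-activated potassium channel gene Kcnn4 was at 7683 and 7550, the surface marker gene Cd24a at 9406 and 8538, the mucosal scavenger receptor gene Dmbt1 at 8085 and 8366, and the chemokine gene Ccl6 at 7512 and 7309. They were picked after their values were seen, so their brightness was fixed by the choice. The second probe sets of Kcnn4, Cd24a and Ccl6 had means of 653, 5690 and 6737.5. Among non-coding transcripts, 4 of the brightest 300 genes were classed as lncRNA, among them Snhg1, host of small nucleolar RNAs, at 6912 and 7042.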
